A study of Mus musculus with 64 samples.

Results

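The heat shock proteins and J-domain cochaperones were taken as a group by gene symbol: the HSP70 genes (Hspa), the HSP110 genes, the HSP90 genes, the small heat shock proteins (Hspb), the J-domain genes (Dnaja, Dnajb and Dnajc), the mitochondrial chaperonin pair *Hspd1* and *Hspe1*, the cochaperones *Stip1*, *Ahsa1* and *Bag3*, and the transcription factor *Hsf1*. The rule found 76 genes of 52636 in the count table, and 72 of them were among the 20249 genes with counts high enough to test. The other 4, *Dnajb8*, *Dnajc5b*, *Dnajc5g* and *Hspb3*, did not exceed 71 reads in any library and were not tested. Brown fat (BAT) and white fat of the epididymal depot (eWAT) of FANKO mice and their littermate controls (WT) had been sequenced for RNA at ZT 6, ZT 10, ZT 18 and ZT 22, where ZT is the number of hours after lights on. There were 4 samples for each depot, genotype and time, or 64 in 16 groups. All animals were male, 2 to 4 months old, fed chow, and carried *Nampt* tm1Jtree, a *Nampt* allele with floxed exon 3. FANKO mice also carried Cre under the *Adiponectin* promoter and WT mice did not, so in FANKO mice *Nampt*, the enzyme that salvages nicotinamide into NAD+, was deleted in adipocytes while the other cells of the depot kept the gene. The labels do not say how the samples of a group were taken, so p-values measure the spread between these samples.

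Heat shock proteins bind unfolded or partly folded proteins and release them in cycles of ATP binding and hydrolysis. J-domain proteins bring clients to HSP70 and start its ATP hydrolysis, nucleotide exchange factors such as the HSP110 proteins reset it, and STIP1 hands clients on to HSP90. HSF1 binds inverted repeats of the unit GAA in the promoters of many of the cytosolic members and raises their transcription in heat and proteotoxic stress, and in other mouse tissues transcripts of such members are known to follow the daily cycle of body temperature. Separate members serve the endoplasmic reticulum (ER), where *Hspa5* encodes the main HSP70, and the mitochondrial matrix, where *Hspa9* and the HSPD1 and HSPE1 chaperonin fold imported proteins. The 72 members tested were described by lists set by hand: 20 cytosolic genes labelled heat-inducible, 8 ER genes, 8 mitochondrial genes and 36 others. The cytosolic list also holds constitutive genes such as *Hspa8* and *Hsp90ab1*. The 36 others were not sorted by compartment, so the lists are not complete for their compartments.

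The libraries held 6117343 to 30544847 reads assigned to genes, with a median of 15826651. The median share of reads on the members was 0.513% for WT and 0.599% for FANKO in BAT. In eWAT it was 0.529% and 0.654%. The targeted gene, *Nampt*, was at 478.7 to 1454 CPM (counts on a common library total, with library sizes scaled by TMM factors) in WT BAT against 108.6 to 186.2 in FANKO BAT, and at 111.5 to 309.7 in WT eWAT against 100.7 to 131 in FANKO eWAT. Its ranges overlapped in eWAT, where the log2 fold change was -0.50 (adjusted p = 4.7e-09, edgeR), against -2.31 in BAT (adjusted p = 1.1e-36, edgeR). The brown adipocyte markers *Ucp1*, *Cidea*, *Dio2* and *Ppargc1a* summed to 4104 to 9685 CPM in WT BAT and 1207 to 3214 in FANKO BAT. The 6 immune markers summed to 50.7 to 102 CPM in WT BAT and 577 to 1464 in FANKO BAT, and the 4 general adipocyte markers to 9133 to 11810 and 4092 to 7117. In eWAT, the ranges of the immune markers (309 to 519 CPM in WT, 332 to 737 in FANKO) and of the general adipocyte markers overlapped between genotypes. By single gene, 3 of 6 immune markers were higher and 1 lower in FANKO eWAT, and 3 of 4 general adipocyte markers were lower and 1 higher, while the white adipocyte markers *Lep*, *Nnat* and *Retn* summed to 1393 to 3208 in WT and 645 to 1234 in FANKO. None of the defining markers of brown or white adipocytes or of immune cells was at 0 throughout a group. In such bulk samples fewer cells of a type and less RNA per cell cannot be told apart, and the part of these marker shifts in the differences below was not tested. Skeletal muscle markers summed to over 100 CPM in 7 BAT libraries and 1 eWAT library, and testis germ cell markers to over 10 CPM in 5 eWAT libraries, with 208.2 CPM in WT eWAT at ZT 18, replicate 2.

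The promoter windows, each running from 250 bases before to 50 bases after an annotated start (RefSeq, GRCm38.p6), were at hand for 61 of the 76 members. The pattern of a heat shock element with 2 inverted units (GAANNTTC or TTCNNGAA, both strands searched) was in the windows of 17 of the 61 members, or 27.9%, against 17% of all 27025 genes with a window. The longer pattern with 3 units (GAANNTTCNNGAA or TTCNNGAANNTTC) was in 4 of the 61, or 6.56%, against 0.662% of all genes, and each such match also holds the shorter pattern. Those 4 were *Hspd1* and *Hspe1*, which start back to back and share the match, *Dnajb6* and *Hsph1*. The matches of these genes are shown first because they are the longest, followed by those of heat-inducible members whose time courses are described further on. Capitals mark the units of the element and the 2 bases between them, and each sequence runs 5′ to 3′ on the strand of its gene.
*Hspe1*, plus strand, chr1:55088053-55088082, in the 5′ exon of a *Hspd1* transcript: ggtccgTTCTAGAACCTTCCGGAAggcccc
*Dnajb6*, plus strand, chr5:29735843-29735872, in the first exon of a *Dnajb6* transcript: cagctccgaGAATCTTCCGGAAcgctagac
*Hsph1*, minus strand, chr5:149636280-149636309, in the first exon: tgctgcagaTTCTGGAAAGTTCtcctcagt
*Dnaja1*, plus strand, chr4:40722333-40722362, in an exon of a *Dnaja1* transcript that starts upstream: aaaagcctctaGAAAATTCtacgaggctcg
*Hspa1a*, minus strand, chr17:34972217-34972296, before the gene: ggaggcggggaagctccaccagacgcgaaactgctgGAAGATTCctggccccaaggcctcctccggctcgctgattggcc
*Hspa1b*, minus strand, chr17:34959299-34959378, before the gene: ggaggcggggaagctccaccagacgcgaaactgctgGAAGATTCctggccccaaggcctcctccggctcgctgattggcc
*Hspb1*, plus strand, chr5:135887776-135887855, before the gene: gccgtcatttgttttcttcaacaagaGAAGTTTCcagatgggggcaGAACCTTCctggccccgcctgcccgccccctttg
The stretches of *Hspa1a* and *Hspa1b* were identical, and 247 of the 250 bases before their starts were alike (98.8%). In the stretch of *Hspb1* the element appeared at 2 places. The E-box CACGTG, the site of the core clock activators, was in 6 of the 61 members (*Dnajb9*, *Dnajc1*, *Dnajc16*, *Dnajc8*, *Hspd1* and *Hsph1*), or 9.84%, against 8.09% of all genes. A match of a pattern says nothing about binding, and the windows of *Hspa8*, *Hsp90aa1*, *Hsp90ab1* and 12 other members were not analysed here.

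In WT BAT, 17 of the 20 cytosolic genes were rhythmic, each with its highest mean at ZT 18 or ZT 22. The list of these 20 genes was chosen with earlier results of these data known, so counts and medians on it are descriptions. A gene was called rhythmic when a cosine and a sine of 24 h period, tested together in edgeR's quasi-likelihood model, passed a Benjamini-Hochberg adjusted p (FDR) of 0.01 over all 20249 genes. By this test 28 of the 72 members were rhythmic in WT BAT, or 38.9%, where 13.9% of all genes were. The calls covered 17 of the 20 cytosolic genes, 1 of the 8 ER genes and 10 of the 36 others. Among the 8 mitochondrial genes there were 0 by edgeR, by DESeq2 and by limma-voom, and 2 at an unadjusted p under 0.05. The highest of the 4 time-point means fell at ZT 18 for 16 of the 28 (57.1%), against 28.6% of all rhythmic genes. Those with their highest mean in the light phase were 5 at ZT 6 and 3 at ZT 10, among them *Dnajb9*, an ER cochaperone of HSPA5, and *Dnajc27*, a J-domain protein with a Rab-like GTPase fold. Without the 8 libraries holding skeletal muscle markers the count was 22.

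In FANKO BAT, 23 members were rhythmic (31.9%), where 2.84% of all genes were, and 21 of the 23 had their highest mean at ZT 18 (91.3%, against 44.5% of all rhythmic genes). The cytosolic genes gave 15 of these calls, the ER genes 5 and the mitochondrial genes 1, *Hspe1*. In WT eWAT 27 members were rhythmic against 9.38% of all genes, namely 13 cytosolic, 5 ER, 4 mitochondrial and 5 other genes. The highest mean fell at ZT 22 for 18 of them (66.7%, against 38% of all rhythmic genes). It fell at ZT 18 for the remaining 9 (33.3%, against 28.2%). In FANKO eWAT the count was 8 members, or 11.1%, where 6.77% of all genes were called: *Hsph1*, *Hspa8*, *Dnajb1*, *Dnajb2*, *Dnajb9*, *Dnajc27*, *Hspa2* and *Hspa5*. The count in FANKO BAT was 12 without replicate 1, 14 without replicate 2 and 13 without replicate 4 of each group, and that in FANKO eWAT was 5 without replicate 1 or replicate 2.

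**Figure D1:**
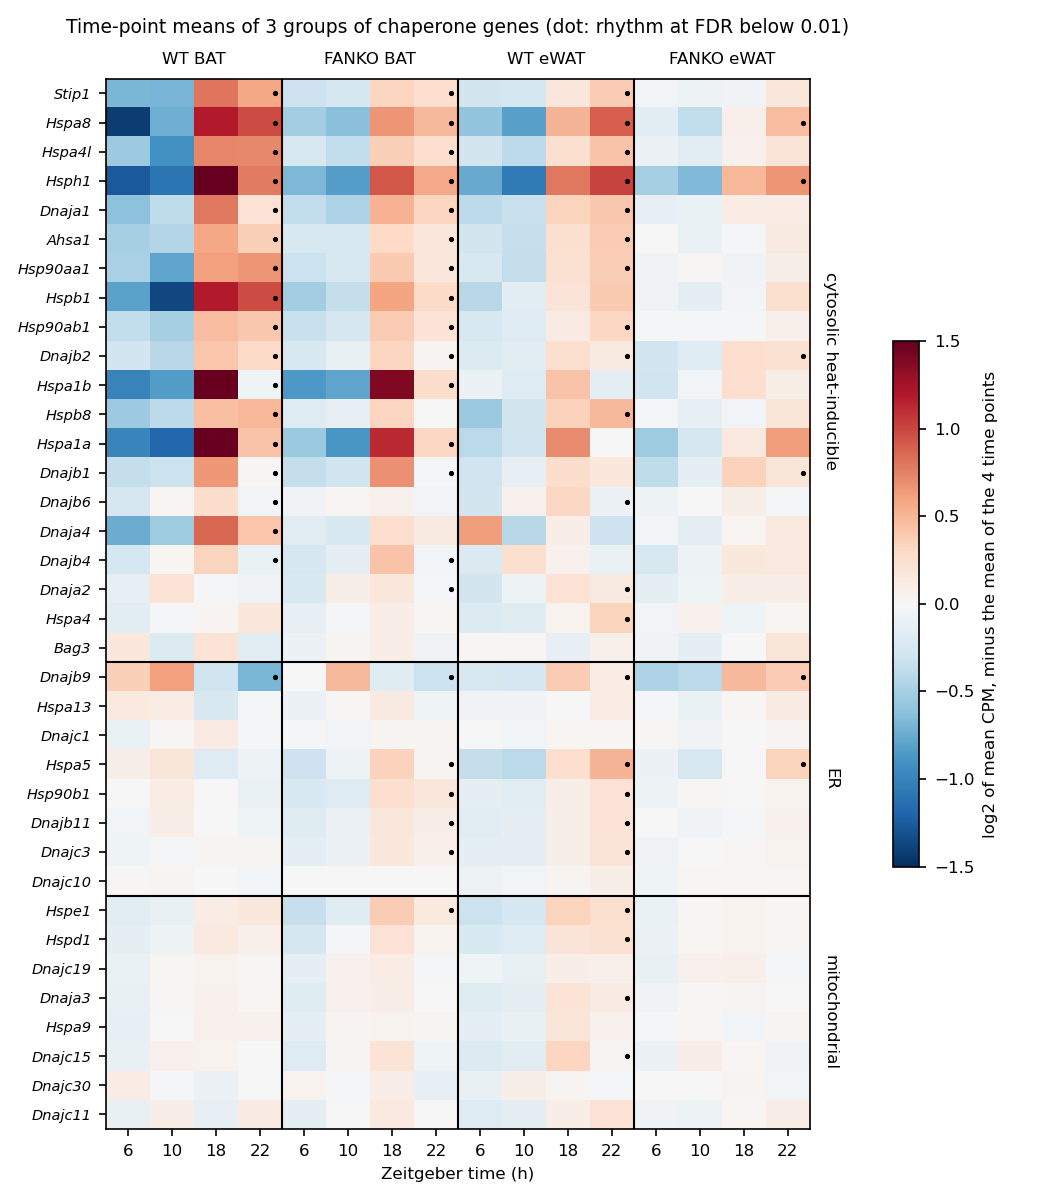
Mean level of the 20 cytosolic, 8 ER and 8 mitochondrial members at each time point, drawn as colour: log2 of the mean CPM of 4 samples minus the mean over the 4 time points of the same depot and genotype, with colours cut at plus and minus 1.5 and a dot where the member was rhythmic (FDR below 0.01). The cytosolic rows turn from low at ZT 6 and ZT 10 to high at ZT 18 and ZT 22 in WT BAT, with paler colours in FANKO BAT and the palest in FANKO eWAT.

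*Hspa8* (ENSMUSG00000015656, chr9:40800984-40810087), the constitutive cytosolic HSP70, had its low in the light phase and its high in the dark phase. In WT BAT it was at 201.3, 213, 146 and 174 CPM at ZT 6, 369.9, 367, 195 and 249 at ZT 10, 1102, 1094, 1109.9 and 1176 at ZT 18 and 1211, 991, 864 and 799 at ZT 22. The FANKO samples were at 422, 391, 458 and 355 CPM at ZT 6, 443, 345, 387 and 334 at ZT 10, 1081, 882, 811 and 915 at ZT 18 and 995, 849, 642 and 782 at ZT 22. All 4 FANKO samples lay above all 4 WT samples at ZT 6 and below them at ZT 18, and the genotypes overlapped at ZT 10 and ZT 22. The amplitude, the highest minus the lowest of the 4 time-point means on the log2 scale, was 2.62 ± 0.13 (SE, n = 4 samples per time point here and below) in WT BAT and 1.29 ± 0.13 in FANKO BAT. The rhythm differed between the genotypes (adjusted p = 1.9e-05, edgeR's quasi-likelihood test of both terms). The small nucleolar RNA genes *Snord14c*, *Snord14d* and *Snord14e* lie within *Hspa8* on the same strand, and reads from them could enter its count.

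In eWAT, *Hspa8* was at 286, 243, 263 and 211 CPM at ZT 6, 223, 239.8, 194 and 196 at ZT 10, 454, 469, 636 and 590.4 at ZT 18 and 863, 682, 721 and 536 at ZT 22 in WT mice. FANKO eWAT samples were at 518, 501, 517 and 538 CPM at ZT 6, 350.0, 445, 535 and 469 at ZT 10, 678, 565, 529 and 677 at ZT 18 and 896, 791, 836 and 693 at ZT 22. The FANKO samples lay above all WT samples at ZT 6 and ZT 10 and overlapped them at ZT 18 and ZT 22. The amplitude was 1.70 ± 0.16 in WT and 0.85 ± 0.15 in FANKO eWAT (difference of rhythm, adjusted p = 0.00179, edgeR). This call was lost without replicate 2, 3 or 4 of each group, with adjusted p up to 0.063.

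*Hsph1* (ENSMUSG00000029657, chr5:149614287-149636376), an HSP110 protein that resets HSP70, had the largest amplitude of the 72 members in WT BAT and in WT eWAT. Its samples in WT BAT were at 17.2, 18.1, 18.3 and 17.9 CPM at ZT 6, 20.1, 24.2, 19.3 and 16.5 at ZT 10, 109.6, 112, 159.9 and 134 at ZT 18 and 66.1, 72.2, 78.6 and 80.1 at ZT 22. Those in FANKO BAT were at 37.8, 40.5, 43.3 and 37.0 CPM at ZT 6, 34.8, 33.2, 39.3 and 35.0 at ZT 10, 146, 96.4, 107 and 133 at ZT 18 and 102, 95.8, 88.3 and 87.8 at ZT 22. The genotypes overlapped only at ZT 18, and FANKO samples were the higher ones at the other 3 time points. The amplitude was 2.83 ± 0.13 in WT and 1.74 ± 0.15 in FANKO BAT (adjusted p = 0.00334 for a difference of rhythm, edgeR). This call was lost without replicate 2 (adjusted p = 0.049), without replicate 3 (0.093) or without the libraries with skeletal muscle markers (0.088). In eWAT the amplitude of *Hsph1* was 2.05 ± 0.19 in WT and 1.35 ± 0.20 in FANKO, and the rhythms were not shown to differ (adjusted p = 0.148, edgeR).

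*Stip1* (ENSMUSG00000024966, chr19:7020702-7039967), which links HSP70 to HSP90, had the smallest p for a rhythm in WT BAT of all members. It was at 38.5, 40.8, 49.3 and 44.9 CPM at ZT 6, 41.8, 42.0, 45.7 and 42.8 at ZT 10, 121, 125, 132 and 111 at ZT 18 and 89.7, 109, 113 and 107 at ZT 22. The FANKO samples were at 51.8, 69.6, 74.0 and 54.7 CPM at ZT 6, 64.7, 59.3, 71.6 and 61.0 at ZT 10, 115, 94.9, 86.8 and 91.5 at ZT 18 and 109, 92.9, 83.01 and 82.6 at ZT 22. FANKO samples lay above all WT samples at ZT 6 and ZT 10, and the genotypes overlapped at ZT 18 and ZT 22. Its amplitude was 1.501 ± 0.06 in WT and 0.64 ± 0.15 in FANKO BAT. It had the smallest p for a difference among the members (adjusted p = 7.4e-07, edgeR), and no alternative tried removed this call. In eWAT the amplitudes were 0.65 ± 0.11 and 0.25 ± 0.06 (adjusted p = 0.03 for the difference).

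**Figure D2:**
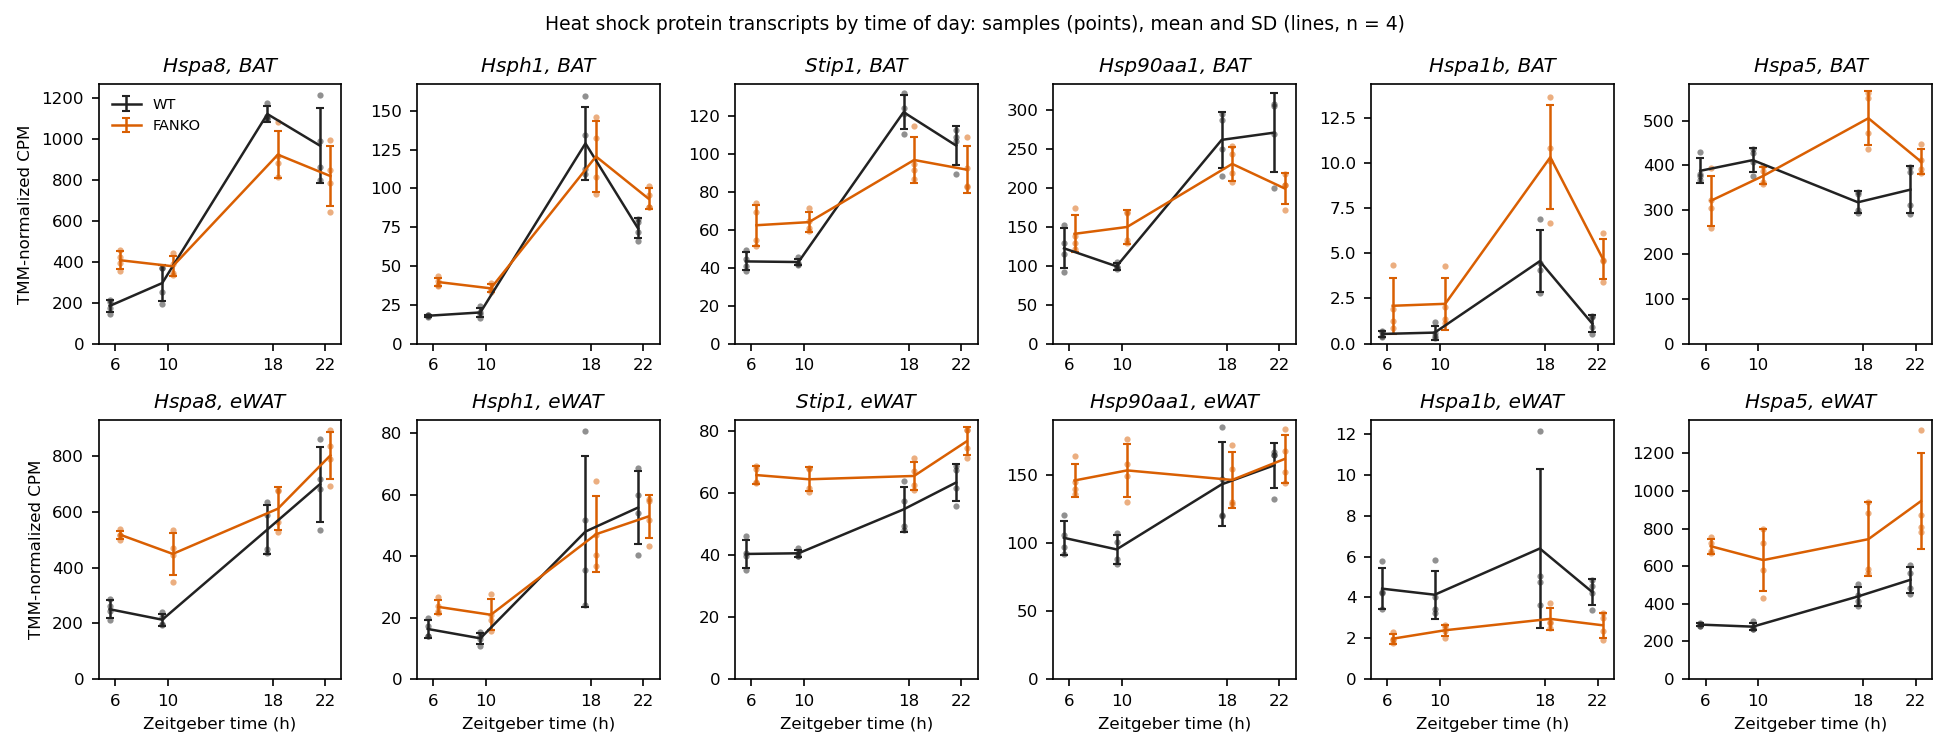
CPM of *Hspa8*, *Hsph1*, *Stip1*, *Hsp90aa1*, *Hspa1b* and *Hspa5* against ZT in hours, BAT in the upper row and eWAT in the lower, with 1 point per sample and lines through the means ± SD of 4 samples for WT and FANKO. In BAT, the FANKO lines of *Hspa8*, *Hsph1* and *Stip1* start above the WT lines at ZT 6 and lie below them at ZT 18.

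The cytosolic HSP90 genes were also rhythmic in WT BAT. *Hsp90aa1*, the heat-inducible cytosolic HSP90, was at 91.7, 115, 153 and 129 CPM at ZT 6, 97.6, 95.7, 105 and 97.6 at ZT 10, 215, 249, 294 and 286 at ZT 18 and 199.7, 305, 308 and 269 at ZT 22 in WT BAT. FANKO BAT samples were at 129, 138, 174 and 121, then 129, 132, 167 and 169, then 253, 207, 218 and 243 and then 218, 203, 203 and 171 CPM at the same 4 times. FANKO samples lay above all WT samples at ZT 10 alone. The amplitude was 1.43 ± 0.15 in WT and 0.72 ± 0.13 in FANKO BAT (adjusted p = 4.5e-04, edgeR). That call was lost without replicate 2 (0.026) or replicate 4 (0.013). The constitutive *Hsp90ab1* had amplitudes of 0.95 ± 0.13 and 0.72 ± 0.15, which were not shown to differ (adjusted p = 0.271, edgeR). *Ahsa1*, the activator of the HSP90 ATPase, had 1.07 ± 0.06 and 0.53 ± 0.11 in BAT (adjusted p = 0.00216, edgeR). In eWAT it had 0.72 ± 0.11 and 0.23 ± 0.03 (adjusted p = 0.00128, edgeR). The BAT call was lost without replicate 2 (0.037), 3 (0.0295) or 4 (0.0371) and without the libraries with skeletal muscle markers (0.108), and the eWAT call without replicate 2 (0.0573) or 3 (0.0414). For *Hsp90aa1* and *Hsp90ab1* in FANKO eWAT the amplitudes were 0.15 ± 0.13 and 0.10 ± 0.09, against 0.72 ± 0.11 and 0.55 ± 0.09 in WT eWAT. Neither difference passed the test (adjusted p = 0.0308 and 0.157, edgeR).

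*Hspb1* (ENSMUSG00000004951, chr5:135887919-135889563), the small heat shock protein HSP27, was at 15.3, 17.7, 21.0 and 18.9 CPM at ZT 6, 12.2, 12.7, 11.4 and 12.7 at ZT 10, 63.7, 58.0, 56.4 and 113 at ZT 18 and 65.0, 63.9, 55.2 and 66.1 at ZT 22 in WT BAT. In FANKO BAT the samples were at 23.6, 39.8, 28.1 and 25.7 at ZT 6, 31.6, 30.8, 39.4 and 29.2 at ZT 10, 83.4, 42.4, 38.8 and 90.4 at ZT 18 and 77.5, 42.2, 36.4 and 50.1 CPM at ZT 22. FANKO samples were all above WT at ZT 6 and ZT 10 and overlapped them at ZT 18 and ZT 22. The WT sample at 113 CPM at ZT 18 stood apart from the other 3. The amplitude was 2.497 ± 0.24 in WT and 1.05 ± 0.36 in FANKO BAT (adjusted p = 3.6e-04, edgeR). The call was lost without replicate 2 (0.013) or replicate 3 (0.015). Its relative *Hspb8*, which works with BAG3 in clearing aggregates, was rhythmic in both depots of WT mice, with amplitudes of 1.05 ± 0.18 and 1.04 ± 0.24. It was called in neither depot of FANKO mice (0.47 ± 0.27, adjusted p = 0.1, and 0.31 ± 0.09, adjusted p = 0.483, edgeR). The difference itself did not pass the test in BAT (adjusted p = 0.0463) or in eWAT (adjusted p = 0.0301).

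The strictly stress-inducible HSP70 pair *Hspa1a* and *Hspa1b* was rhythmic in both genotypes in BAT, though the call of *Hspa1a* in FANKO BAT was lost without replicate 2 (0.018), 3 (0.0183) or 4 (0.0212). *Hspa1b* was at 0.361, 0.425, 0.624 and 0.698 CPM at ZT 6, 0.389, 1.16, 0.579 and 0.282 at ZT 10, 6.89, 2.80, 4.08 and 4.46 at ZT 18 and 0.890, 1.45, 1.51 and 0.538 at ZT 22 in WT BAT. FANKO BAT samples were at 4.32, 1.27, 1.90 and 0.858 at ZT 6, 4.28, 1.34, 2.01 and 1.15 at ZT 10, 13.7, 6.67, 10.1 and 10.8 at ZT 18 and 6.14, 4.59, 3.4003 and 4.61 CPM at ZT 22. FANKO samples lay above all WT samples at ZT 6 and ZT 22, and at ZT 10 and ZT 18 the lowest FANKO sample lay just below the highest WT sample. Its amplitude was 2.81 ± 0.32 in WT and 2.43 ± 0.51 in FANKO BAT with no difference shown (adjusted p = 0.411). Its mean level rose in FANKO BAT (log2 fold change 1.80 ± 0.23 SE, adjusted p = 2.7e-10) and fell in FANKO eWAT (-0.95 ± 0.19, adjusted p = 1.7e-05, edgeR). *Hspa1a* had log2 fold changes of 2.33 ± 0.26 in BAT (adjusted p = 9.7e-12) and -0.49 ± 0.22 in eWAT (adjusted p = 0.0537, edgeR). The genes of this pair are nearly identical and how reads that fit both were counted is not given in the sources used here, so their separate values are uncertain. In WT eWAT neither was rhythmic (*Hspa1b* amplitude 0.49 ± 0.42, adjusted p = 0.48, edgeR).

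Of the J-domain partners of cytosolic HSP70, *Dnaja1* (ENSMUSG00000028410, chr4:40722150-40737149) had the smallest p of all members for a rhythm in FANKO BAT. Its amplitude was 1.40 ± 0.10 in WT BAT and 0.97 ± 0.11 in FANKO BAT (difference of rhythm, adjusted p = 0.0327, edgeR). In eWAT it was at 62.8, 55.4, 65.9 and 59.99 CPM at ZT 6, 63.1, 66.5, 67.8 and 58.0 at ZT 10, 98.0, 91.0, 115 and 99.6 at ZT 18 and 126, 99.0, 118 and 81.8 at ZT 22 in WT. At the same times FANKO samples were at 75.1, 78.3, 88.5 and 74.7, then 75.4, 81.2, 86.1 and 80.0, then 99.3, 90.6, 83.4 and 100.03 and then 87.5, 99.96, 88.4 and 95.5 CPM. FANKO eWAT samples lay above all WT samples at ZT 6 and ZT 10 and overlapped them at ZT 18 and ZT 22. The amplitude was 0.78 ± 0.15 against 0.24 ± 0.08 (adjusted p = 0.00517, edgeR, lost without replicate 1, 2 or 3, up to 0.19). The exons of *Dnaja1* overlap *Gm6297* and *Smu1* on the opposite strand and *Mir207* on its own. *Dnajb1*, the HSP40 that is induced with *Hspa1a*, had amplitudes of 1.00 ± 0.09 in WT BAT and 1.00 ± 0.28 in FANKO BAT (adjusted p = 0.989 for a difference of rhythm, edgeR). *Dnajb2*, a J-domain protein that also binds ubiquitin, had 0.82 ± 0.11 and 0.58 ± 0.24 in BAT, and 0.44 ± 0.09 and 0.55 ± 0.11 in eWAT, and no difference was shown (adjusted p = 0.0905 and 0.908, edgeR). Of the HSP110 genes, *Hspa4l* went from 1.64 ± 0.06 in WT BAT to 0.72 ± 0.10 in FANKO BAT (adjusted p = 1.1e-05, edgeR, a call that no alternative tried removed). *Hspa4* went from 0.54 ± 0.11 to 0.14 ± 0.09 in eWAT (adjusted p = 0.00732, edgeR, lost without replicate 1, 2 or 3, in a separate fit of eWAT, with time as a factor, and without the libraries with germ cell or muscle markers).

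By direct test, 11 of the 72 members had a different rhythm in FANKO BAT (15.3%), where 2.76% of all genes did. They were the 7 cytosolic genes *Ahsa1*, *Hsp90aa1*, *Hspa4l*, *Hspa8*, *Hspb1*, *Hsph1* and *Stip1*, the 2 ER genes *Hspa5* and *Hsp90b1*, and *Dnajb5* and *Dnajc2*. The count was 6 or 7 when 1 replicate of each group was left out, 6 without the libraries with skeletal muscle markers and 5 with library size alone as the scale. Among the calls lost with library size alone were *Ahsa1*, *Hsph1*, *Hspa5* and *Hsp90b1*. In FANKO eWAT the test called 4 members, *Ahsa1*, *Dnaja1*, *Hspa4* and *Hspa8* (5.56%, against 1.15% of all genes), 0 without replicate 2 or replicate 3, and 0 with library size alone or without mitochondrial genome reads as the scale. By threshold, 16 members were rhythmic in both genotypes in BAT (1.56% of all genes), 12 in WT alone (12.3%) and 7 in FANKO alone (1.28%). In eWAT there were 6 in both (2.07%), 21 in WT alone (7.31%) and 2 in FANKO alone (4.7%). Of the 21 eWAT members that were rhythmic in WT alone, 3 differed by the direct test, so these lists do not show that a rhythm was lost. Of the 16 members rhythmic in both genotypes in BAT, 14 were highest at one and the same ZT in each genotype. The amplitude was the lower one in FANKO for 13, where it was for 64.2% of all genes tested. Neither count was computed for the other genes rhythmic in both genotypes.

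Over the whole group, the amplitude was lower in FANKO than in WT for 43 of 72 members in BAT, where it was for 64.2% of all genes, and for 52 of 72 in eWAT, against 54.7% of all genes. Among the 20 cytosolic genes it was lower for 17 in BAT and 15 in eWAT. Their median amplitude was 1.24 in WT BAT and 0.71 in FANKO BAT, where the medians of all genes were 0.43 and 0.33. It was 0.61 in WT eWAT and 0.31 in FANKO eWAT, where all genes were at 0.37 and 0.35. The mitochondrial genes went opposite ways by depot, with 0 of 8 lower in FANKO BAT and 8 of 8 lower in FANKO eWAT. However, 0 of these 8 passed the test of a difference of rhythm in either depot by edgeR, DESeq2 or limma-voom. At an unadjusted p under 0.05 by edgeR there were 1 in BAT and 4 in eWAT. The counts of lower amplitudes are descriptions, and most single members did not pass the test of a difference.

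**Figure D3:**
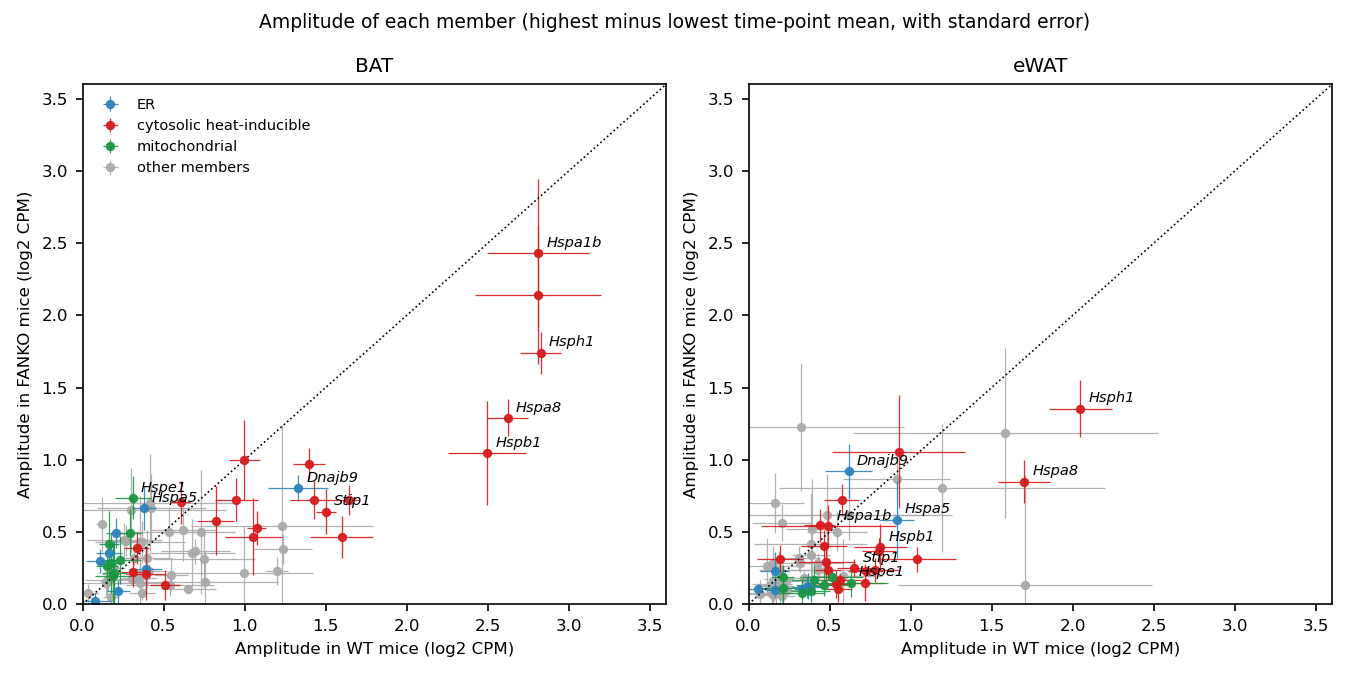
Amplitude in WT (horizontal) against FANKO (vertical) of each of the 72 members, in log2 CPM, 1 panel per depot, with standard errors as bars, colours for the lists and a dotted line of equal amplitude. Most cytosolic members lie below the line in both depots, 17 of 20 in BAT and 15 of 20 in eWAT.

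The separation of the genotypes was counted at each time point. At ZT 6 in BAT, all 4 FANKO samples lay above all 4 WT samples for 10 of the 20 cytosolic genes (25.4% of all genes) and below for 0 (24.9% of all genes). At ZT 10 the counts were 9 above (26.7%) and 2 below (25.7%), at ZT 18 they were 3 above (20.8%) and 4 below (20.9%), and at ZT 22 they were 6 above (24.8%) and 6 below (23.8%). The list was chosen with earlier results of these data known, so these counts are descriptions. In eWAT the same count was 13 above and 1 below at ZT 6 (21.6% and 14.1% of all genes), 13 and 1 at ZT 10 (22.2% and 15.7%), 3 and 0 at ZT 18 (13.5% and 8.19%) and 7 and 1 at ZT 22 (16.4% and 12.9%). The 8 mitochondrial genes kept 7 or 8 below at every time point in BAT and 4 to 7 above in eWAT. All these counts were made on CPM scaled by TMM factors and on no other scale. In mean level, the cytosolic genes were 17 higher and 0 lower in FANKO BAT with library size alone, and 5 higher and 2 lower in FANKO eWAT.

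**Figure D4:**
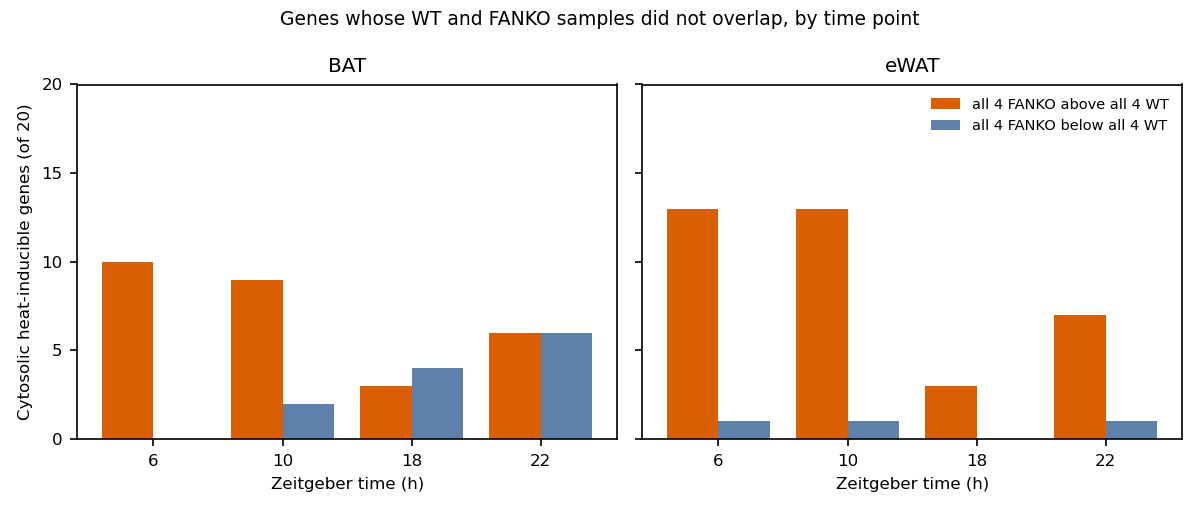
Number of the 20 cytosolic genes (vertical) for which all 4 FANKO samples lay above, or all 4 below, all 4 WT samples at each ZT, 1 panel per depot. The bars for above are tallest at ZT 6 and ZT 10, with 10 and 9 genes in BAT and 13 at both times in eWAT. The counts used CPM scaled by TMM factors and were made on no other scale.

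The timing of the members was also compared between the depots. In WT mice 13 members were rhythmic in both BAT and eWAT (2.91% of all genes), and the fitted peak came later in eWAT for 9 of them, with a median lag of 0.68 h. This count was not tested, and the lag of all genes was not computed. Of all rhythmic genes, 25.9% were highest at ZT 22 in WT BAT and 38% in WT eWAT. The fitted peak of *Hspa8* was at 18.7 h in WT BAT and 21.4 h in WT eWAT, that of *Hsph1* at 18.6 and 20.9 h, and that of *Dnaja1* at 17.7 and 20.03 h. In FANKO mice 6 members were rhythmic in both depots (0.914% of all genes). In WT the widest shift was that of *Dnajc16*, from 7.08 h in BAT to 20.9 h in eWAT, which is 10.2 h earlier by the shorter way round the 24 h clock and was counted as earlier. *Dnajb9* went from 9.93 to 18.4 h, and the other 11 shifted by -1.19 to 2.70 h. With 4 time points, fitted peaks are interpolations. By direct test 20 of the 72 members had a different rhythm between WT BAT and WT eWAT (27.8%), where 6.98% of all genes did, namely 11 cytosolic genes, 4 ER genes and 5 others. There were 0 of the 8 mitochondrial genes (0 by DESeq2 and limma-voom, 1 at an unadjusted p under 0.05). The smallest adjusted p belonged to *Dnajb9* (7.3e-09) and *Stip1* (3.9e-08), and *Hspa8* was at 1.4e-05 (edgeR). The count was 10 without the libraries with skeletal muscle markers and 10 to 16 with 1 replicate of each group left out.

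Of the 8 ER genes, 1 was called rhythmic in WT BAT (13.9% of all genes) and 5 in FANKO BAT (2.84%). At an unadjusted p under 0.05 by edgeR there were 4 in WT BAT and 5 in FANKO BAT. The FANKO BAT call of *Dnajb11* was lost without replicate 1 (adjusted p = 0.084, edgeR), 2 (0.136) or 4 (0.05), and without the libraries with skeletal muscle markers (0.065). That of *Dnajb9* was lost without replicate 2 (0.049) or 3 (0.018). The direct test of a difference called *Hspa5* and *Hsp90b1*. *Hspa5* (ENSMUSG00000026864, chr2:34771970-34777547), the ER HSP70 known as BiP, was at 379, 366, 375 and 428 CPM at ZT 6, 436, 375, 406 and 428 at ZT 10, 293, 340.3, 298 and 335 at ZT 18 and 395, 385, 290.0 and 310.4 at ZT 22 in WT BAT. In FANKO BAT it was at 304, 259, 394 and 322 at ZT 6, 398, 362, 386 and 358 at ZT 10, 562, 473, 436 and 549.6 at ZT 18 and 382, 392, 410.4 and 447 CPM at ZT 22. FANKO samples lay above all WT samples at ZT 18 and overlapped them at the other times. The WT time course was not called rhythmic (amplitude 0.38 ± 0.07, adjusted p = 0.125), whereas the FANKO one was (0.67 ± 0.15, adjusted p = 0.00515, edgeR). The rhythms differed (adjusted p = 0.0026, edgeR). The FANKO call was lost without replicate 1 (0.0288), 2 (0.0909) or 4 (0.0868), without the libraries with skeletal muscle markers (0.0388), with time as a factor and with library size alone. This difference was lost without replicate 1, 2 or 4 (up to 0.074) and without the libraries with skeletal muscle markers (0.052).

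In eWAT, *Hspa5* was at 295, 281, 301 and 282 CPM at ZT 6, 264, 307, 279 and 265 at ZT 10, 448, 414, 507 and 388 at ZT 18 and 606, 487, 566 and 453 at ZT 22 in WT. FANKO eWAT samples were at 669, 679.5, 722 and 755 at ZT 6, 429, 579.7, 799 and 723 at ZT 10, 941, 587, 566 and 881 at ZT 18 and 1324, 808, 781 and 873 CPM at ZT 22. All FANKO samples were above all WT samples at each of the 4 time points, and the mean level rose by a log2 fold change of 1.02 ± 0.07 SE (adjusted p = 2.5e-18, edgeR). In BAT it was 0.13 ± 0.07 (adjusted p = 0.11, edgeR). The rhythm call of *Hspa5* in FANKO eWAT was lost without replicate 1 (adjusted p = 0.581, edgeR), 2 (0.0485) or 4 (0.0216). It was also lost without the libraries with skeletal muscle markers (0.0211). The genotype effect on rhythm differed between BAT and eWAT for 3 of the 72 members (2.09% of all genes), all of them ER genes: *Hspa5* (adjusted p = 7.1e-04), the ER HSP90 *Hsp90b1* (6.9e-04) and *Dnajb11*, an ER J-domain partner of HSPA5 (0.00569, edgeR). The count was 0 without replicate 2 or replicate 3, 2 without replicate 1 or replicate 4, 0 with library size alone, and 5 by DESeq2.

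*Hsp90b1* had amplitudes of 0.21 ± 0.07 (WT) and 0.49 ± 0.10 (FANKO) in BAT, and of 0.37 ± 0.07 (WT) and 0.13 ± 0.09 (FANKO) in eWAT. The difference of rhythm passed the test in BAT (adjusted p = 7.5e-04, edgeR, lost without replicate 1, 0.011, or replicate 3, 0.026) but not in eWAT (adjusted p = 0.287, edgeR). *Dnajb11* had 0.16 ± 0.08, 0.35 ± 0.09, 0.36 ± 0.10 and 0.12 ± 0.07 in the same 4 groups, and its rhythm was not shown to differ between genotypes in either depot. Its difference between the depots in genotype effect on rhythm was lost without any 1 replicate of each group (adjusted p = 0.0125 to 0.143, edgeR). In WT mice *Dnajb9* was highest in the light phase in BAT, at 44.0, 60.5, 36.2 and 54.9 CPM at ZT 6, 59.0, 62.9, 60.2 and 51.7 at ZT 10, 31.6, 29.6, 26.0 and 36.4 at ZT 18 and 18.8, 25.7, 18.9 and 31.01 at ZT 22. In WT eWAT it was highest in the dark phase, at 21.4, 22.9, 24.04 and 21.5, then 22.1, 23.0, 23.4 and 20.7, then 28.9, 29.4, 37.9 and 42.9 and then 35.4, 27.1, 28.8 and 24.3 CPM at the same times. Its mean level fell in FANKO BAT (-0.42 ± 0.08, adjusted p = 8.1e-06), where with library size alone as the scale the value was 0.16 and not called. It rose in FANKO eWAT (0.87 ± 0.08, adjusted p = 6.4e-14, edgeR). Of the 8 ER genes, 5 were higher and 2 lower in FANKO BAT (33.1% and 33.9% of all genes). In FANKO eWAT 7 were higher (27.6% of all genes) and 1 did not pass the test. On the scale of library size alone 7 were higher and 0 lower in BAT, and 5 higher and 1 lower in eWAT.

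The mitochondrial chaperones differed between the genotypes in level, in opposite directions in BAT and eWAT. All 8 fell in FANKO BAT, where 33.9% of all genes fell, and all 8 rose in FANKO eWAT, where 27.6% of all genes rose. Both changes together were called for 20 of the 72 members and 11.6% of all genes. The genotype effect on level differed between depots for 53 members. Relative to eWAT it was higher in BAT for 15 (32.2% of all genes) and lower for 38 (32.1%). That split depended on the scale: with library size alone it was 50 higher and 11 lower, and the median of all genes moved from 0.04 to 0.88 on the log2 scale. *Hspa9*, the mitochondrial HSP70 known as mortalin, had a lowest, median and highest sample of 1354, 1625 and 1895 CPM in WT BAT (n = 16) and of 564, 845 and 991 in FANKO BAT, with no overlap. The log2 fold change was -0.99 ± 0.06 (SE, adjusted p = 6.2e-22, edgeR). In eWAT these were 279, 382 and 504 CPM in WT and 722, 841 and 908 in FANKO, again with no overlap but with FANKO the higher (1.10 ± 0.06, adjusted p = 1.0e-22, edgeR). The difference between the depots' effects was -2.09 ± 0.09 (adjusted p = 3.4e-29, edgeR).

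*Hspd1* (ENSMUSG00000025980, chr1:55077835-55088243), the mitochondrial chaperonin HSP60, was at 411, 521 and 608 CPM in WT BAT and 131, 200.7 and 244 in FANKO BAT (-1.43 ± 0.06, adjusted p = 2.7e-30, edgeR). In eWAT it was at 94.0, 151 and 202 in WT and 159, 184 and 196 in FANKO (0.30 ± 0.06, adjusted p = 1.3e-05, edgeR). The genotypes did not overlap in BAT and overlapped in eWAT. Its lid *Hspe1* (ENSMUSG00000073676, chr1:55088132-55091307), which is read from the other strand of the same promoter shown above, was at 104, 129 and 173 CPM in WT BAT and 33.8, 47.7 and 79.8 in FANKO BAT (-1.40 ± 0.07, adjusted p = 1.1e-27), and 0.57 ± 0.07 was its log2 fold change in eWAT (adjusted p = 3.9e-11, edgeR). The exons of *Hspd1* and *Hspe1* overlap on opposite strands. The strand setting of the counting is not given in the sources used here. *Dnaja3*, the matrix J-domain partner of HSPA9, had -1.23 ± 0.06 in BAT and 0.72 ± 0.06 in eWAT (adjusted p = 1.7e-28 and 3.2e-17, edgeR). The other 4, *Dnajc11*, *Dnajc15*, *Dnajc19* and *Dnajc30*, ranged from -1.09 to -0.43 in BAT and from 0.16 to 0.74 in eWAT. With library size alone as the scale 6 of the 8 were lower in FANKO BAT and *Dnajc11* and *Dnajc30* turned positive, and 5 were higher in eWAT with *Dnajc19* negative. Under every scale tried all 8 lay below the median of all genes in BAT and above it in eWAT. Of the brown adipocyte markers 2 of 4 were lower in FANKO BAT than in WT BAT, and their sums did not overlap. In eWAT the sums of these markers, 8.99 to 25.2 CPM in WT and 35.3 to 76.0 in FANKO, did not overlap either and were the higher ones in FANKO, where *Cidea* rose (log2 fold change 3.03) and *Dio2* fell (-1.72). The part of these markers in the values of the mitochondrial members was not tested.

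**Figure D5:**
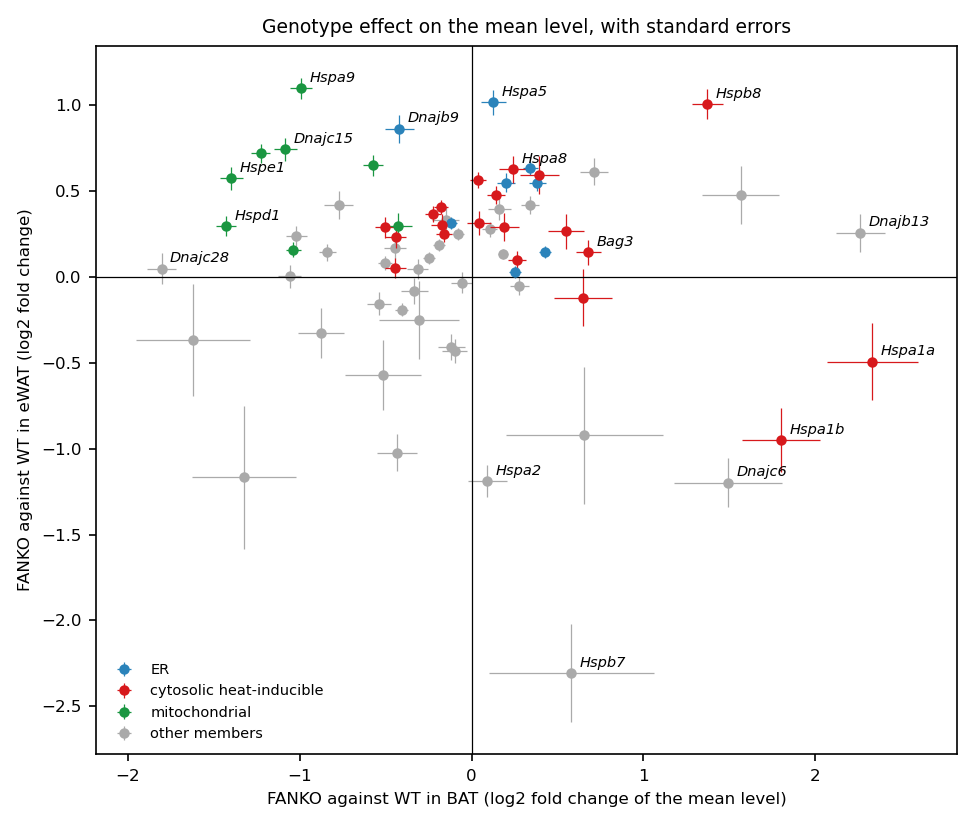
Log2 fold change of mean level, FANKO against WT, in BAT (horizontal) and eWAT (vertical) for the 72 members, with standard errors as bars and colours for the lists. The 8 mitochondrial members all lie to the left of 0 in BAT and above 0 in eWAT, from -1.43 to -0.43 and from 0.16 to 1.10.

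Of the 72 members, 54 differed in level in BAT (67% of all genes) and 48 in eWAT (50.3% of all genes). In detail, 21 were higher and 33 lower in FANKO BAT (33.1% and 33.9% of all genes), and 40 were higher and 8 lower in FANKO eWAT (27.6% and 22.8% of all genes). These splits depended on the scale. With library size alone the median log2 fold change of all genes was 0.58 in BAT and -0.27 in eWAT, and the members split into 44 higher and 11 lower in BAT and 16 higher and 21 lower in eWAT. Relative to the median of all genes, the median member lay at -0.13 in BAT and 0.26 in eWAT by TMM and at -0.12 and 0.26 by library size. The median share of mitochondrial genome reads was 24.6% for WT and 14.7% for FANKO in BAT. In eWAT it was 6.55% and 10.7%. Without them in the library size the split was 41 higher and 16 lower in BAT and 21 higher and 18 lower in eWAT.

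Among the 20 cytosolic genes, 9 were higher and 6 lower in FANKO BAT (33.1% and 33.9% of all genes). In FANKO eWAT 13 were higher and 1 lower (27.6% and 22.8% of all genes). With library size alone as the scale they were 17 higher and 0 lower in BAT, and 5 higher and 2 lower in eWAT. *Hspb8* had a lowest, median and highest sample of 41.5, 74.8 and 143 CPM in WT BAT and 154, 212 and 405 in FANKO BAT, and rose there by 1.37 ± 0.09 (adjusted p = 5.6e-21, edgeR). In eWAT it was at 63.3, 122 and 220.2 in WT and 215, 253 and 313 in FANKO (1.01 ± 0.09, adjusted p = 4.9e-15, edgeR). The genotypes did not overlap in BAT, and in eWAT the highest WT sample lay above the lowest FANKO sample. *Bag3*, its partner and a nucleotide exchange factor of HSP70, rose in BAT (0.68 ± 0.07, adjusted p = 3.2e-12, edgeR) and was not shown to change in eWAT (0.15 ± 0.07, adjusted p = 0.0801). *Hspa8* was higher in FANKO BAT by 0.24 ± 0.08 (adjusted p = 0.00579, edgeR), a call lost without replicate 3 (0.019), replicate 4 (0.031) or the libraries with skeletal muscle markers (0.06). It was higher in FANKO eWAT by 0.63 ± 0.08 (adjusted p = 1.1e-09, edgeR). *Dnaja2*, a cytosolic J-domain protein, fell in BAT (-0.18 ± 0.04) and rose in eWAT (0.41 ± 0.04, adjusted p = 8.2e-05 and 3.8e-13, edgeR), but with library size alone its value in BAT was 0.41, in the other direction.

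Further members had large differences of level. *Dnajc28*, a gene of the J-domain family, was at 61.2, 70.4 and 85.2 CPM in WT BAT and 14.99, 20.8 and 31.2 in FANKO BAT and had the largest fall among the members there (-1.80 ± 0.08, adjusted p = 6.1e-28, edgeR). In eWAT its value was 0.05 ± 0.09 (adjusted p = 0.641). *Dnajb13*, a gene of motile cilia and sperm, was at 0.282, 0.740 and 1.28 in WT BAT and 2.08, 3.74 and 5.55 in FANKO BAT (2.26 ± 0.14, adjusted p = 1.2e-21, edgeR), and it overlaps *Ucp2* on the opposite strand. *Hspb7*, a small heat shock protein of muscle, was at 1.16, 3.75 and 9.05 in WT eWAT and 0.271, 0.880 and 2.31 in FANKO eWAT and had the largest fall in that depot (-2.31 ± 0.28, adjusted p = 3.8e-10, edgeR). *Dnajc6*, the neuronal auxilin that uncoats clathrin vesicles with HSPA8, rose in BAT (1.49 ± 0.32) where it was at most 0.625 CPM, and fell in eWAT (-1.20 ± 0.14, adjusted p = 2.8e-05 and 1.2e-10, edgeR). *Hspa2*, a testis-rich HSP70, was at 8.60, 14.8 and 31.6 in WT eWAT and 4.13, 6.92 and 10.7 in FANKO eWAT (-1.19 ± 0.09, adjusted p = 1.2e-16, edgeR).

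*Hspa2*, *Hspb9* and *Hspa1l*, known for testis expression, were each highest in the library with the largest sum of germ cell markers, and all 4 of these markers were lower in FANKO than in WT eWAT. *Hspb9* reached 7.19 CPM and *Hspa1l* 4.66 CPM in WT eWAT at ZT 18, replicate 2, the library in which the germ cell markers summed to 208.2 CPM, whereas their medians in WT eWAT were 0.39 and 0.352 CPM. In BAT, where 3 of the 4 germ cell markers were at 0 in every WT library and the sum did not pass 0.316 CPM, *Hspa1l* was at 0.445, 0.942 and 1.48 CPM in WT and 0, 0.293 and 0.467 in FANKO and fell by 1.62 on the log2 scale (adjusted p = 1.9e-05, edgeR). In eWAT *Hspb9* was called rhythmic in WT and peaked at ZT 18. Without the 5 libraries with these markers it was below the filter on low counts and gave no value, and 23 members in all were rhythmic in WT eWAT. *Hspa2* was still called rhythmic in WT eWAT without them (adjusted p = 0.00495, edgeR), and *Hspa1l* was not (0.748). All 4 FANKO samples of *Hspa2* lay below all 4 WT samples in eWAT at each of the 4 time points. At ZT 22 the germ cell markers summed to at most 0.563 CPM in any eWAT library. The part of germ cells in these values was not tested.

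*Hsf1*, the heat shock factor that induces many of these genes, was rhythmic in WT BAT. There it was at 14.6, 14.2, 12.6 and 14.0 CPM at ZT 6, 15.3, 14.6, 13.4 and 13.1 at ZT 10, 17.6, 19.7, 19.8 and 14.2 at ZT 18 and 21.8, 22.9, 19.9 and 16.9 at ZT 22. Its amplitude was 0.55 ± 0.11 (adjusted p = 2.7e-04, edgeR), a call lost without replicate 2 (0.013) or replicate 3 (0.012). It was 0.20 ± 0.11 in BAT of FANKO mice, and in eWAT it was 0.32 ± 0.18 (WT) and 0.29 ± 0.07 (FANKO), and none of these passed the test (adjusted p = 0.485, 0.214 and 0.174, edgeR). The rhythms of the genotypes were not shown to differ in BAT (adjusted p = 0.259, edgeR). Its mean level gave -0.06 ± 0.06 in BAT and -0.03 ± 0.06 in eWAT, neither called (adjusted p = 0.401 and 0.653, edgeR), while with library size alone the BAT value was 0.54 and called.

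Members with the 2-unit heat shock element in their window were compared with those without it. In WT BAT 10 of the 15 tested members with a match were rhythmic (66.7%) and 12 of the 43 without (27.9%), with median amplitudes of 1.05 and 0.35. In FANKO BAT the counts were 7 of 15 and 13 of 43 (median amplitudes 0.494 and 0.355). In WT eWAT they were 6 of 15 and 17 of 43 (0.493 and 0.383), and in FANKO eWAT 2 of 15 and 5 of 43 (0.31 and 0.237). The members with a match included the promoters printed above. With the 3-unit element, 2 of 4 members with a match and 20 of 54 without were rhythmic in WT BAT, with median amplitudes of 0.411 and 0.373. The counts were 2 of 4 and 18 of 54 in FANKO BAT, 4 of 4 and 19 of 54 in WT eWAT, and 1 of 4 and 6 of 54 in FANKO eWAT. Rhythmic shares of all genes with or without the element were not computed. For the E-box the counts were 4 of 6 with a match (66.7%) and 18 of 52 without (34.6%) in WT BAT. They were 3 of 6 and 17 of 52 in FANKO BAT, 4 of 6 and 19 of 52 in WT eWAT, and 2 of 6 and 5 of 52 in FANKO eWAT. Most members with the heat shock element were also on the cytosolic list. *Hspa1a* and *Hspa1b*, with nearly the same promoter, and *Hspd1* and *Hspe1*, with a shared match, were counted separately. These are descriptions, and *Hspa8*, *Hsp90aa1* and *Hsp90ab1* are in none of the sets.

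Per length, the most abundant members differed by depot and genotype. In WT BAT the median of 16 samples, in CPM per kilobase of exon (RPKM, lowest and highest sample in parentheses), was 377 (314 to 439.8) for *Hspa9*, 246 (160.1 to 396) for *Hsp90ab1*, 197 (156 to 230.1) for *Hspd1* and 136 (33.9 to 282) for *Hspa8*. In FANKO BAT it was 210.2 (143 to 332) for *Hsp90ab1*, 196 (131 to 230.0) for *Hspa9*, 128 (77.6 to 251) for *Hspa8* and 109 (78.9 to 208) for *Hspb8*. Neighbours in these orders overlapped. In WT eWAT *Hsp90ab1* led at 143 (117 to 224). *Hspa9*, *Hspa8* and *Hspa5* followed with medians of 88.6, 86.1 and 82.2. In FANKO eWAT *Hspa9* and *Hsp90ab1* stood at 195 (168 to 211) and 190.1 (162 to 216), and *Hspa5* 175 (101 to 313).

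The other genes of the folding machinery were taken from a list of 52, all tested, that holds HSP90 and HSP70 cochaperones, the TRiC chaperonin, prefoldin, ER folding factors, heat shock factors and the cold-inducible genes *Cirbp* and *Rbm3*. Of these, 14 were rhythmic in BAT of WT and 16 in BAT of FANKO mice, where 13.9% and 2.84% of all genes were. In eWAT the counts were 24 and 8, where 9.38% and 6.77% of all genes were rhythmic. The HSP90 cochaperones gave 8 of 11 for WT and 5 for FANKO in BAT, and 5 and 3 in eWAT. *Chordc1*, an HSP90 partner, had amplitudes of 1.31 ± 0.10, 0.90 ± 0.11, 0.85 ± 0.15 and 0.50 ± 0.07 for WT BAT, FANKO BAT, WT eWAT and FANKO eWAT. All 8 TRiC subunits were rhythmic in WT eWAT, against 1 in BAT of each genotype. In BAT of WT mice 5 of 8 and of FANKO mice 8 of 8 were at an unadjusted p under 0.05, and for the latter DESeq2 called 3 and limma-voom 2. In FANKO eWAT there were 0 by edgeR, DESeq2 and limma-voom, and 0 at an unadjusted p under 0.05. By direct test 3 of them differed between genotypes in eWAT, *Tcp1* (adjusted p = 0.00214), *Cct6a* (0.00372) and *Cct3* (0.00573, edgeR). *Fkbp5*, an HSP90 immunophilin and a glucocorticoid receptor target, went from 3.02 ± 0.80 in WT BAT to 0.54 ± 0.18 in FANKO BAT and was the 1 gene of the list whose rhythm differed there by edgeR (adjusted p = 3.8e-05, edgeR). For that comparison DESeq2 called 3 genes of the list and limma-voom 0, and 15 were at an unadjusted p under 0.05 by edgeR. *Ppid* and *Fkbp4*, further immunophilins of HSP90, had 0.66 ± 0.05 and 0.64 ± 0.05 in WT BAT and 0.45 ± 0.11 and 0.72 ± 0.22 in FANKO BAT. *Hyou1*, the ER nucleotide exchange factor, fell in FANKO BAT (-0.37 ± 0.05, adjusted p = 1.7e-09) and rose in FANKO eWAT (0.60 ± 0.05, adjusted p = 9.6e-16, edgeR). In mean level, 9 genes of the list were higher and 24 lower in FANKO BAT, and 40 were higher and 1 lower in FANKO eWAT, where the shares of all genes were 33.1% and 33.9% in BAT and 27.6% and 22.8% in eWAT. Scaling by library size alone moved the median of all genes to 0.58 in BAT and -0.27 in eWAT on the log2 scale, and the list then had 40 higher and 5 lower in BAT and 21 higher and 7 lower in eWAT.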

How the data were processed

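RNA sequencing of 64 libraries was analysed from the deposited table of raw counts per gene. Per the labels and the study's methods, the authors made stranded, ribosome-depleted libraries (38 bp, paired ends), checked reads with FastQC 0.11.5 and MultiQC 1.2, aligned them with STAR 2.5.3a to GRCm38.p5 and counted reads with featureCounts 1.5.3 on GENCODE genes. The strand and multi-mapping settings are not given in the sources used here. No replicate pair agreed within sampling noise.

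Counts were fitted with edgeR 4.0.16 (R 4.3.3) by quasi-likelihood, with TMM factors and genes kept by filterByExpr (minimum count 10, minimum total 15). Each depot and genotype had a mean, a cosine and a sine of 24 h, giving 12 coefficients, and p-values were adjusted by Benjamini-Hochberg over 20249 genes (FDR below 0.01). The level test compares means over 16 samples a genotype. Amplitudes used log2 CPM with a prior count of 2. Promoter patterns were searched in RefSeq windows, and the D-box patterns were in 1 of 61 members.

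Alternatives were RLE factors, both library-size scales, DESeq2 1.42.0, limma-voom (limma 3.58.1), other filters, separate depot fits, time as a factor, a replicate block and leaving out replicates. The scripts were tested on simulated data. Named members were those with the 5 smallest p-values for rhythm per depot and genotype and for a difference of rhythm per depot, the 3 largest rises and falls in level per depot, every member of a class of 5 or fewer, and a fixed set, with 3 further pathway genes per depot by WT rhythm. The members, lists and rules were chosen with earlier results of these data known. Members named outside this rule were chosen after their values were seen.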

Additional observations from a re-analysis of the deposited data

Results flagged for a closer look

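In 30 of the 544 groups of 4 samples of the 34 named members, 1 sample stood far from the other 3 by Dixon's ratio, where chance gives about 1 group in 20. The values that follow are that sample's CPM and the nearest of the other 3. For *Ahsa1* it was at 68.4 CPM in FANKO BAT at ZT 10, with the nearest at 64.7. For *Dnaja1* it was at 91.2 CPM in WT BAT at ZT 22, with the nearest at 78.1. For *Dnaja2* it was at 107 CPM in FANKO BAT at ZT 18, with the nearest at 121, and at 106 CPM in WT BAT at ZT 18, with the nearest at 120.2. For *Dnaja3* it was at 324 CPM in WT BAT at ZT 10, with the nearest at 342. For *Dnaja4* it was at 41.5 CPM in WT eWAT at ZT 6, with the nearest at 6.64. For *Dnajb13* it was at 0.4001 CPM in WT BAT at ZT 18, with the nearest at 0.964. For *Dnajc27* it was at 14.1 CPM in WT BAT at ZT 10, with the nearest at 9.60, and at 6.38 CPM in WT eWAT at ZT 10, with the nearest at 9.83, and at 9.21 CPM in WT eWAT at ZT 22, with the nearest at 10.5. For *Dnajc28* it was at 22.6 CPM in FANKO BAT at ZT 6, with the nearest at 15.6, and at 8.29 CPM in WT eWAT at ZT 10, with the nearest at 12.3. For *Dnajc6* it was at 5.63 CPM in FANKO eWAT at ZT 18, with the nearest at 3.15, and at 17.4 CPM in WT eWAT at ZT 6, with the nearest at 7.77. For *Hsp90aa1* it was at 132 CPM in WT eWAT at ZT 22, with the nearest at 165. For *Hsp90b1* it was at 392 CPM in FANKO BAT at ZT 22, with the nearest at 288. For *Hspa1b* it was at 12.2 CPM in WT eWAT at ZT 18, with the nearest at 5.07. For *Hspa1l* it was at 1.46 CPM in FANKO eWAT at ZT 18, with the nearest at 0.442, and at 4.66 CPM in WT eWAT at ZT 18, with the nearest at 0.596. For *Hspa4* it was at 179.7 CPM in FANKO BAT at ZT 6, with the nearest at 141, and at 139.9 CPM in WT eWAT at ZT 10, with the nearest at 119.7. For *Hspa5* it was at 1324 CPM in FANKO eWAT at ZT 22, with the nearest at 873. For *Hspa9* it was at 722 CPM in FANKO eWAT at ZT 22, with the nearest at 886. For *Hspb1* it was at 113 CPM in WT BAT at ZT 18, with the nearest at 63.7. For *Hspb7* it was at 1.22 CPM in FANKO BAT at ZT 22, with the nearest at 0.161, and at 0.299 CPM in WT BAT at ZT 22, with the nearest at 0. For *Hspd1* it was at 167 CPM in FANKO eWAT at ZT 18, with the nearest at 191, and at 192 CPM in FANKO eWAT at ZT 6, with the nearest at 164. For *Hspe1* it was at 44.5 CPM in FANKO eWAT at ZT 10, with the nearest at 53.8, and at 23.3 CPM in WT eWAT at ZT 10, with the nearest at 30.2.

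The genotype effect on mean level differed between BAT and eWAT for 25 of the 34 named members (edgeR's quasi-likelihood test of the interaction, Benjamini-Hochberg adjusted p below 0.01). Some of these were named for a large change in level, so their count cannot be set against a share of all genes. Over all members it differed for 53 of 72, where it did for 64.3% of all genes. The values that follow are the log2 fold change in BAT minus that in eWAT. The difference was negative for *Hspa9* -2.09, *Hspe1* -1.97, *Dnaja3* -1.95, *Dnajc28* -1.85, *Hspd1* -1.73, *Dnajb9* -1.28, *Hspa5* -0.89, *Hspa4l* -0.79, *Dnajb2* -0.67, *Hspa4* -0.60, *Dnaja2* -0.58, *Ahsa1* -0.53, *Hsp90ab1* -0.48, *Hspa8* -0.39, *Stip1* -0.33 and *Dnajb11* -0.29. It was positive for *Hspb7* 2.89, *Hspa1a* 2.82, *Hspa1b* 2.75, *Dnajc6* 2.69, *Dnajb13* 2.00, *Hspa2* 1.28, *Dnaja4* 0.77, *Bag3* 0.53 and *Hspb8* 0.36. With library size alone as the scale, 9 of the 16 negative values turned positive, those of *Hspa4l*, *Dnajb2*, *Hspa4*, *Dnaja2*, *Ahsa1*, *Hsp90ab1*, *Hspa8*, *Stip1* and *Dnajb11*. The call of *Hspb8* was lost without replicate 1 (adjusted p = 0.133, edgeR), 2 (0.0177) or 4 (0.0153), and without the libraries with skeletal muscle markers (0.0189). That of *Dnaja4* was lost without replicate 1 (0.0139) or 2 (0.0463), and both were lost by limma-voom (0.0138 and 0.0133). The genotype effect on rhythm differed between the depots for 3 ER members, with adjusted p of 0.00569 for *Dnajb11*, 6.9e-04 for *Hsp90b1* and 7.1e-04 for *Hspa5* (edgeR).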

How the results depend on the processing

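With library size alone the counts of rhythmic members were 14 in FANKO BAT and 16 in WT eWAT, those with a different rhythm were 5 in BAT and 0 in eWAT, and 12 differed between WT BAT and WT eWAT. The members split into 44 higher and 11 lower in FANKO BAT and 16 higher and 21 lower in FANKO eWAT, 13 were rhythmic in WT eWAT alone, and 0 had a genotype effect on rhythm that differed between depots. Without mitochondrial genome genes in the library size, 16 members were rhythmic in WT eWAT, 12 of them in WT alone, 0 differed in rhythm in eWAT, 41 were higher and 16 lower in FANKO BAT, and 21 were higher and 18 lower in FANKO eWAT. At an FDR of 0.05, 18 members differed in rhythm in BAT and 8 in eWAT, 13 were lower in FANKO eWAT and 8 had an effect on rhythm that differed between depots. DESeq2 gave 5 for the last count, and no filter on low counts gave 2 members with a different rhythm in eWAT. Without the libraries with skeletal muscle markers, an alternative chosen after seeing the data, 6 members differed in rhythm in BAT and 10 between WT BAT and WT eWAT.

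Leaving out 1 replicate number from all groups gave 12 to 20 rhythmic members in FANKO BAT, 5 to 8 in FANKO eWAT, 6 to 7 with a different rhythm in BAT, 0 to 3 in eWAT, 10 to 16 between WT BAT and WT eWAT, and 0 to 2 with an effect on rhythm that differed between depots. The labels do not say whether a replicate number marks one animal. Between BAT and eWAT the correlation of deviations was over 0.1 in 10 of 32 same-numbered pairs (median 0.0527) and 5 of 96 others (median -0.0214), and 38 of 64 samples correlated best with their own number, a hint of pairing from the data. Between WT and FANKO it was over 0.1 in 6 of 32 same-numbered pairs and 6 of 96 others. With a replicate block across depots, 20 members differed in rhythm between WT BAT and WT eWAT and 3 and 53 had a genotype effect on rhythm and level that differed between depots. Among single members, *Dnajb11* lost its difference of rhythm between WT depots (0.0108) and between genotype effects (0.0125, edgeR), *Dnaja4* lost its difference in level (0.0102), and *Hspe1* (rhythm, 0.00522), *Hsp90aa1* and *Hspa1l* (level, 0.0011 and 0.00351) passed the test. With the replicate number as a block, 28, 24, 27 and 7 members were rhythmic in WT BAT, FANKO BAT, WT eWAT and FANKO eWAT, and 11 and 4 differed in rhythm in BAT and eWAT.

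Values that changed sign under library size alone were, for the log2 fold change in BAT, *Dnaja2* 0.41, *Dnajb2* 0.14, *Dnajb9* 0.16, *Dnajc27* 0.26, *Hsf1* 0.54, *Hsp90ab1* 0.42, *Hspa4* 0.36 and *Hspa4l* 0.08642, and in eWAT *Dnajb2* -0.01398. For BAT minus eWAT they were *Ahsa1* 0.30, *Dnaja2* 0.24, *Dnajb1* 0.74, *Dnajb11* 0.54, *Dnajb2* 0.16, *Dnajc27* 0.58, *Hsf1* 0.82, *Hsp90aa1* 0.57, *Hsp90ab1* 0.36, *Hsp90b1* 0.67, *Hspa4* 0.23, *Hspa4l* 0.03858, *Hspa8* 0.44, *Hspb1* 0.63 and *Stip1* 0.50. Without mitochondrial genome genes they were *Dnaja2* 0.20, *Dnajc27* 0.04816, *Hsf1* 0.33, *Hsp90ab1* 0.20 and *Hspa4* 0.15 in BAT, and *Ahsa1* 0.03329, *Dnajb1* 0.47, *Dnajb11* 0.27, *Hsf1* 0.55, *Hsp90aa1* 0.30, *Hsp90ab1* 0.08999, *Hsp90b1* 0.41, *Hspa8* 0.18 and *Stip1* 0.23 for BAT minus eWAT. Leaving out 1 replicate number, the value of *Dnaja4* in eWAT ran from -0.27 to 0.3. With 4 samples per time point and 4 time points in 24 h, small amplitudes and peak times between the time points were not resolved.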
